A study of Mus musculus with 10 samples.

Results

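Markers of the surface ectoderm were measured in limb buds of mouse embryos whose limb mesenchyme lacked Dicer and in limb buds labelled wild type. The markers are the basal keratins Krt5, Krt14, Krt15 and Krt17, the simple epithelial keratins Krt8 and Krt18, the transcription factor Trp63, and the adhesion genes Cdh1, Epcam and Perp. Every probe set of the deposited table that is annotated to exactly 1 of these 10 symbols was taken, which gave 19 of 45101 probe sets, for 10 of 18193 genes. The series holds 10 Affymetrix arrays, 5 labelled Dicer mutant and 5 labelled wild type, numbered 1 to 5 in each group. Embryos came from a cross in which 1 parent was heterozygous for a floxed Dicer allele and carried the prxcre driver, and the other parent was homozygous for the floxed allele. By that cross every embryo, wild type included, inherited at least 1 floxed allele, and the genotyping sorted embryos into wild type, heterozygous and mutant. The sources used here state no age, limb type or number of embryos per array. The p-values therefore describe the variation among these arrays, and part of it may be technical. The number of arrays limits the precision.

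The limb bud is a core of mesenchyme covered by a thin sheet of ectoderm, which is thickened at the tip into the apical ectodermal ridge. The prxcre driver acts in the mesenchyme, so the ectoderm lies outside the lineage in which Dicer is deleted, while whole limbs, ectoderm included, were used for RNA. Keratins are intermediate filament proteins that assemble as pairs of a type I and a type II chain. Krt14 (type I) pairs with Krt5 (type II) in basal epidermal cells, and Krt18 (type I) pairs with Krt8 (type II) in simple epithelia. Trp63, the gene of p63, is required for a stratified epidermis and for limb outgrowth. Since a bulk sample mixes both tissues, fewer ectoderm cells and less of a transcript per ectoderm cell cannot be told apart in any value below.

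Dicer1, the deleted gene, went against the labels on both arrays numbered 2. Dicer1 probe set 1427941_at had signals of 226, 221, 215 and 205 on Dicer mutant arrays 1, 3, 4 and 5, against 425, 372, 390 and 706 on wild type arrays 1, 3, 4 and 5. Its signal was 360 on the array labelled Dicer mutant 2 and 233 on that labelled wild type 2. Results are therefore given for the 10 arrays as labelled and for the 8 arrays without number 2. The second comparison was chosen from Dicer1 values of these same arrays, and its p-values are not corrected for that choice. In either group the arrays numbered 4 and 5 stood apart from those numbered 1 to 3 on the first principal component (37.7% of the variance), and what the numbers stand for is not stated. Of 20 limb mesenchyme markers, 19 had a mean signal over the arrays above the filter on dim probe sets.

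The ectoderm markers stood close to 0 as a group. In the 8 arrays, 4 of the 10 genes stood below 0 and 6 above 0, each represented by its brightest probe set, with a median log2 fold change (Dicer mutant minus wild type) of 0.029. The median over all 11601 tested genes was -0.013. In the 10 arrays the median was -0.035, beside -0.026 over all tested genes. The summed signal of the 10 brightest probe sets lay between 4175 and 4540 on Dicer mutant arrays 1, 3, 4 and 5, and between 4279 and 4802 on the wild type arrays of these numbers, which overlap. The arrays numbered 2 had 4787 (labelled Dicer mutant) and 5492 (labelled wild type, the highest of all 10).

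Of the 19 probe sets, 17 passed the filter, which kept the brighter part of the array (mean log2 signal no lower than the array-wide median, a signal of 151). They include at least 1 probe set for each of the 10 genes. In the 10 arrays limma called 0 of 17 at a Benjamini-Hochberg adjusted p below 0.05, where it called 0% of all 22519 tested probe sets, and 0 of 17 had an unadjusted p below 0.05 (2.81% of all). In the 8 arrays it again called 0 of 17, where 1.68% of all tested probe sets were called, and 1 of 17 had an unadjusted p below 0.05 (12.7% of all). That 1 probe set was of Krt14. The Dicer mutant and wild type ranges of the 8 arrays overlapped for all 17, while they did not for 9.09% of all tested probe sets. In the 10 arrays 0 of 17 separated the groups, against 0.4% of all. The 2 probe sets under the filter, Krt14 1455573_at with signals of 89.8 to 104 and Krt17 1420193_at with 96.5 to 134, are dim, and no detection calls were used here.

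**Figure D1:**
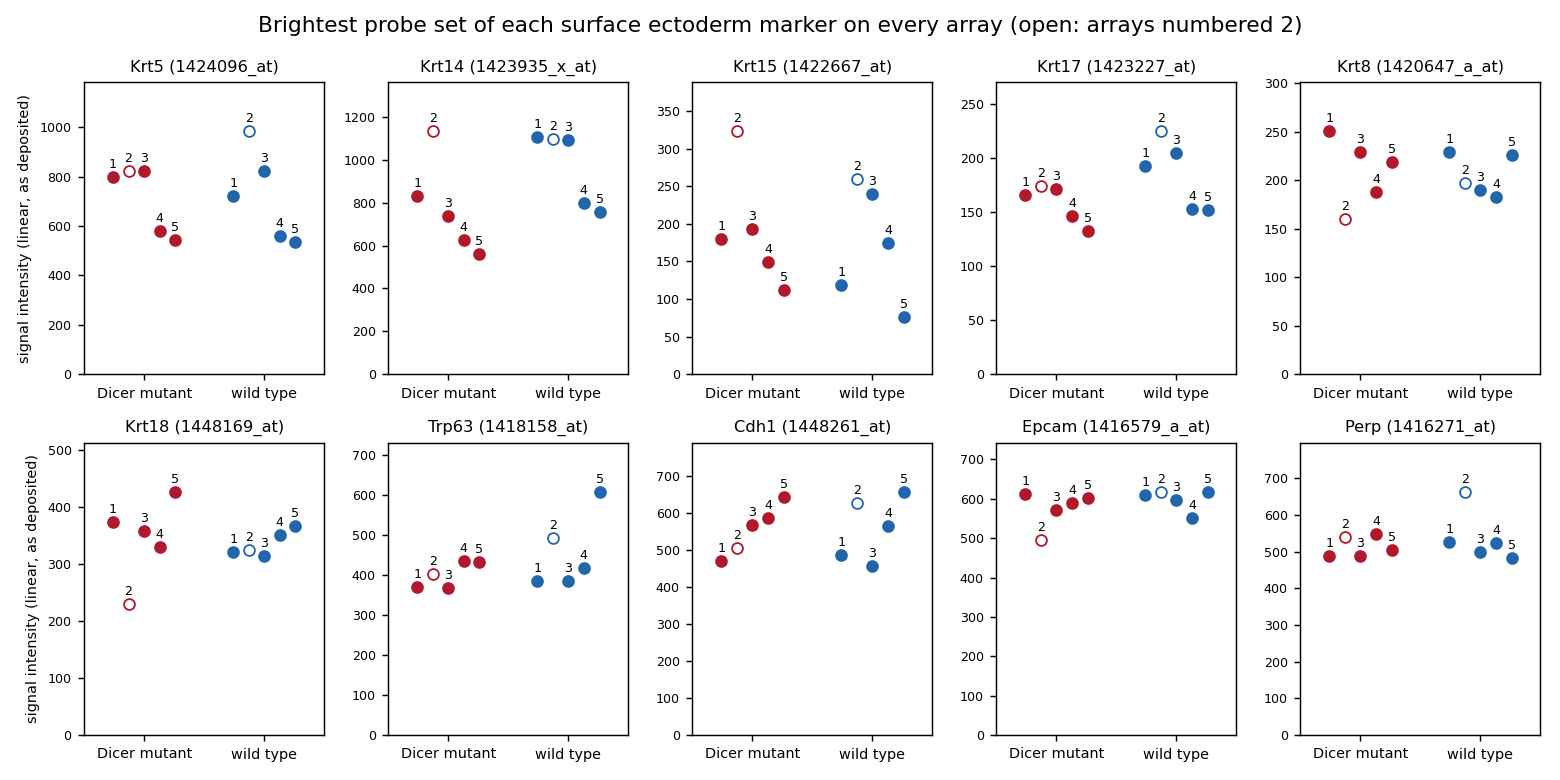
Signal intensity (linear, as deposited) of the brightest probe set of each marker on all 10 arrays, Dicer mutant in red on the left and wild type in blue on the right of each panel. Each point is 1 array with its replicate number, and open points are the arrays numbered 2. Krt5 is split by number in both groups (534 to 580 on arrays 4 and 5, 720 to 985 on arrays 1 to 3), while Epcam and Perp vary little.

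Krt14 was the marker furthest from equal signals. Its brightest probe set, 1423935_x_at, had 830, 737, 624 and 559 on Dicer mutant arrays 1, 3, 4 and 5, against 1107, 1092, 800 and 759 on wild type arrays 1, 3, 4 and 5. Each Dicer mutant array was lower than the wild type array of its number, but the groups overlapped, since Dicer mutant 1 lay above wild type 4 and 5. On the arrays numbered 2 the signals were close together, 1135 in the one labelled Dicer mutant and 1099 in the one labelled wild type. The geometric means of the 8 arrays, 680 and 926, gave a log2 fold change of -0.45 (SE 0.17, 95% interval -0.82 to -0.072, n = 4 per group), with a limma adjusted p of 0.283. Exact permutation of the 8 labels (two-sided) gave p = 0.114.

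A second Krt14 probe set, 1460347_at, showed the same order within the numbers 1, 3, 4 and 5. It had 365, 313, 254 and 217 on Dicer mutant arrays 1, 3, 4 and 5, against 472, 489, 308 and 259 on wild type arrays 1, 3, 4 and 5, and 449 and 507 on the arrays labelled Dicer mutant 2 and wild type 2. Its log2 fold change in the 8 arrays was -0.39 (SE 0.23, limma adjusted p = 0.595). Both sets were also lower on arrays 4 and 5 than on arrays 1 to 3 within each group: for 1423935_x_at the mean log2 signal of arrays 4 and 5 minus that of arrays 1 to 3 was -0.58 among Dicer mutant and -0.50 among wild type arrays, and for 1460347_at -0.66 and -0.79. The spread that this adds to each group enters the SE above.

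With the replicate number as a block, which compares arrays of one number with each other, both Krt14 probe sets were called as lower in the 8 arrays. No label states that arrays of one number are pairs, so the calls of both sets rest on an assumption. Limma's adjusted p was 0.0174 for 1423935_x_at (SE 0.063) and 0.0435 for 1460347_at, in a fit that called 5.41% of all tested probe sets, and 3.01% as lower. These were the only 2 of the 17 member probe sets called in that fit. Leaving out number 1, 3 or 4 as well took the adjusted p of 1423935_x_at to 0.0919, 0.101 and 0.100, with log2 fold changes of -0.46, -0.41 and -0.47, and leaving out number 5 gave 0.00687 at -0.45. Fits without the block were also run on 2 arrays per group, and their calls among all probe sets are counted below. With numbers 1 and 3 alone the log2 fold change was -0.49 (adjusted p = 0.0358). With numbers 4 and 5 alone it was -0.40 (adjusted p = 0.431). In all 10 arrays as labelled it was -0.35 (SE 0.19), with an adjusted p of 1.00 without and 0.898 with the block. The suffix _x_at marks probe sets whose probes may also match other transcripts, and type I keratin genes are close relatives, so part of the signal of 1423935_x_at may come from a relative. The set 1460347_at carries no such mark.

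Krt5, the filament partner of Krt14, did not follow it between the groups. It had 800, 821, 580 and 544 on Dicer mutant arrays 1, 3, 4 and 5, against 720, 823, 559 and 534 on wild type arrays 1, 3, 4 and 5. The groups overlapped almost fully, with a log2 fold change of 0.057 in the 8 arrays (SE 0.18, 95% interval -0.36 to 0.47, adjusted p = 0.964). The lower bound of that interval lies above the Krt14 estimate of either probe set. The Krt14 intervals, -0.82 to -0.072 and -0.91 to 0.14, overlap it, so this does not show that the genes differ. The 2 genes were also compared within arrays.

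The log2 signal of Krt14 minus that of Krt5 was 0.053, -0.16, 0.11 and 0.040 on Dicer mutant arrays 1, 3, 4 and 5, against 0.62, 0.41, 0.52 and 0.51 on wild type arrays 1, 3, 4 and 5. The level of such a difference has no meaning, because the probe sets differ, but its change between arrays shows unequal change of the 2 genes. No Dicer mutant array reached a wild type array, and on the arrays numbered 2 the order was turned, with 0.46 in the one labelled Dicer mutant and 0.16 in the one labelled wild type. The group means differed by -0.50 (exact two-sided permutation p = 0.0286, the smallest that 4 against 4 arrays allow), and in the 10 arrays by -0.34 (exact p = 0.0317). This ratio was picked after its values were seen, from 45 ratios between 2 of the 10 genes, and its exact p-values are not corrected for that. Of these 45, 2 separated the groups in the 8 arrays, Krt14 over Krt5 and Krt14 over Krt8. In a limma fit of the ratio of every tested probe set to Krt5, ranges did not overlap for 2.28% of 22518, and the adjusted p of Krt14 was 1.00, where 0.00444% were called. With the replicate block it was 0.0104, where 6.05% were called.

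**Figure D2:**
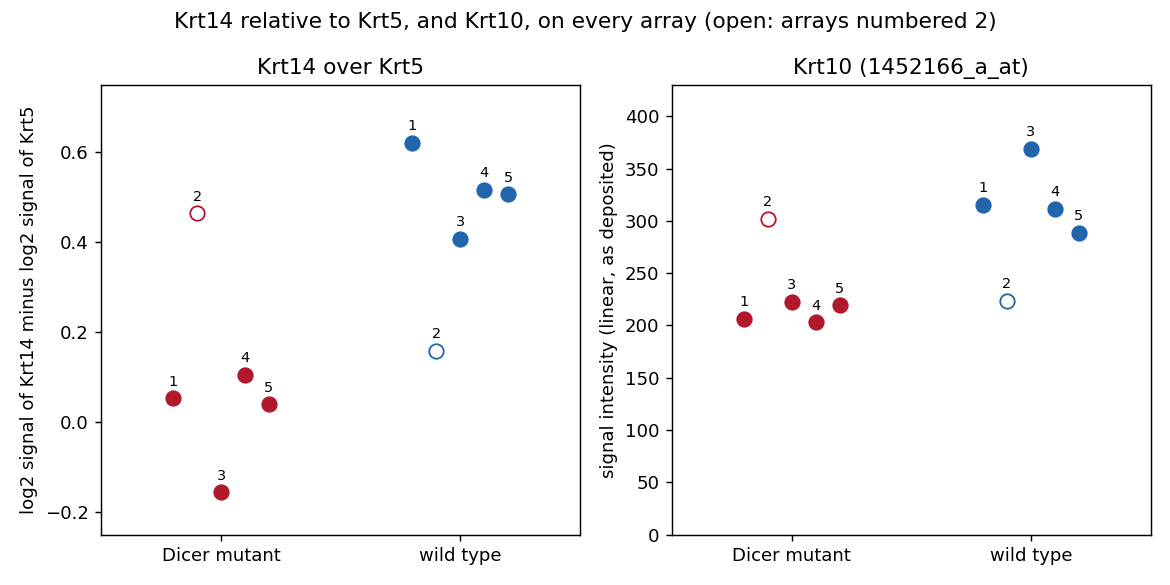
Left, log2 signal of Krt14 minus log2 signal of Krt5 on each array; right, signal intensity of Krt10. Dicer mutant arrays are red and stand left of wild type arrays in blue, numbers are replicate numbers, and open points are the arrays numbered 2. Without number 2 the groups do not overlap in either panel, and each array numbered 2 lies nearer the other group.

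The remaining basal keratins were dimmer. Krt17, which is also a keratin of the periderm, had 166, 172, 147 and 133 on Dicer mutant arrays 1, 3, 4 and 5, against 193, 205, 153 and 152 on wild type arrays 1, 3, 4 and 5 (1423227_at). It was lower in the Dicer mutant array of each of these numbers. On the arrays numbered 2, where Dicer1 went against the labels, the one labelled Dicer mutant was lower too (174 against 225). There 61.3% of all tested probe sets were lower. The log2 fold change of Krt17 in the 8 arrays, -0.18 (SE 0.12, adjusted p = 0.646, and 0.123 with the replicate block), did not pass the test. It was -0.10 without wild type 3 and -0.25 without wild type 5. Krt15 had the widest spread of the 10 genes, from 75.5 on wild type 5 to 324 on Dicer mutant 2, a 4.28-fold range. Its log2 fold change of 0.16 (SE 0.32, 95% interval -0.57 to 0.89) leaves either direction possible, and it turned to -0.13 without wild type 5.

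The arrays numbered 4 and 5 were all below those numbered 1 to 3 for Krt5, for Krt14 1460347_at and for Krt17 1423227_at, in both groups. That is 3 of the 17 member probe sets, where 11.7% of all tested probe sets show this order, and 0 of 17 showed the opposite order, which 8.34% of all did. Krt5 had 534 to 580 on the 4 arrays numbered 4 and 5 and 720 to 985 on the other 6. Krt15 had lower mean log2 signals on arrays 4 and 5 as well (a difference of -0.79 among Dicer mutant and -0.76 among wild type arrays), but with overlap, since wild type 4 (174) lay above wild type 1 (118). The split was seen in these data, so no test of it is given. The markers that are not basal keratins did not share it. By their brightest probe sets, Krt18, Trp63 and Cdh1 had higher mean log2 signals on arrays 4 and 5 than on 1 to 3 in both groups, with overlap. The differences were 0.26, 0.20 and 0.26 among Dicer mutant arrays and 0.16, 0.28 and 0.23 among wild type arrays. The 3 dimmer Trp63 sets did not show this in both groups, with -0.066, 0.013 and 0.12 among Dicer mutant and -0.0068, -0.031 and -0.083 among wild type arrays.

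**Figure D3:**
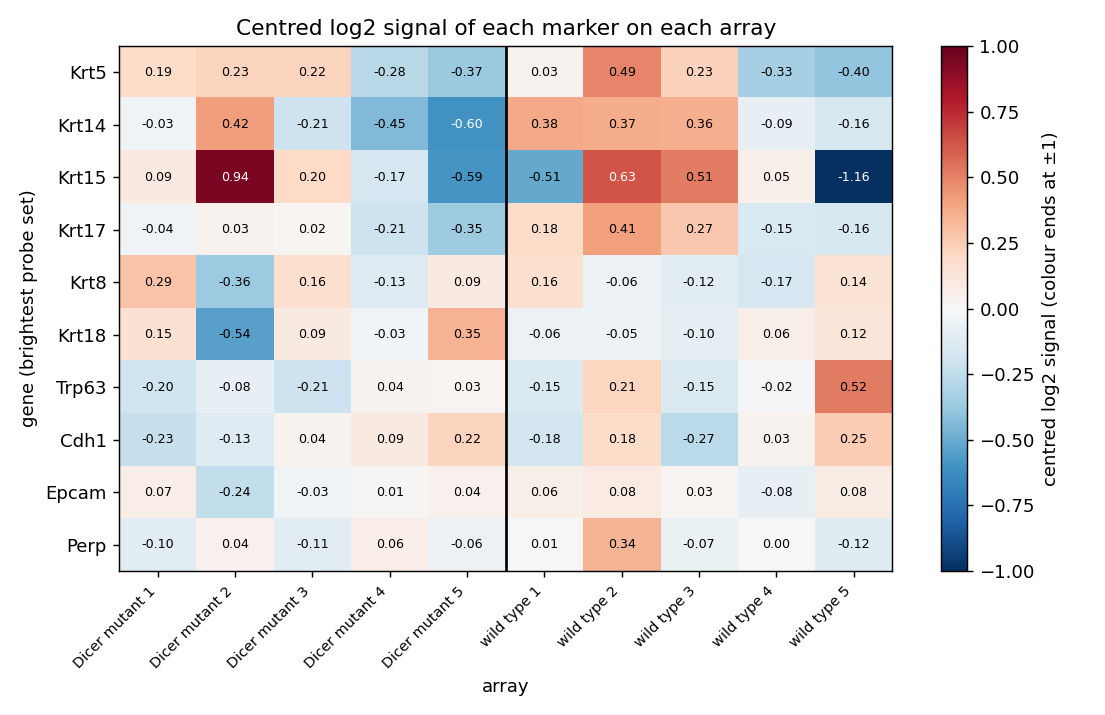
Log2 signal of each marker minus its mean over the 10 arrays, with Dicer mutant arrays to the left of the line and wild type arrays to the right. Each cell prints its value, red is above and blue below the mean, and colours end at 1 on either side. Krt5, Krt14 and Krt17 are lower on arrays 4 and 5 than on 1 to 3 within each group, Krt15 is lower there on average with overlap, and the array labelled Dicer mutant 2 is low for Krt8 and Krt18.

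The simple epithelial keratins Krt8 and Krt18 lie next to each other on chromosome 15, and both stood slightly higher in the Dicer mutant arrays of the 8, within the spread. Krt18 (1448169_at) had 374, 358, 330 and 427 on Dicer mutant arrays 1, 3, 4 and 5, against 322, 314, 351 and 366 on wild type arrays 1, 3, 4 and 5. In numbers 1, 3 and 5 the Dicer mutant array was the higher, and the log2 fold change was 0.13 (SE 0.097, 95% interval -0.083 to 0.35, adjusted p = 0.686). Krt8 (1420647_a_at) had 251, 229, 188 and 219 on Dicer mutant arrays 1, 3, 4 and 5, against 229, 190, 183 and 226 on wild type arrays 1, 3, 4 and 5, a log2 fold change of 0.100 (SE 0.11, adjusted p = 0.838). Without single arrays Krt18 ran from 0.066 (without Dicer mutant 5) to 0.19 (without Dicer mutant 4), and Krt8 from 0.038 (without Dicer mutant 1) to 0.18 (without Dicer mutant 4). The other Krt8 sets, 1423691_x_at and 1435989_x_at, gave 0.081 and 0.056. The array labelled Dicer mutant 2 had the lowest signal of all 10 for both genes, 231 for Krt18 and 160 for Krt8, and also for Epcam, 494.

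Upstream sequences are shown for the keratins Krt5, Krt8 and Krt18 and for Epcam, 4 of the 5 markers for which a window was listed. The window of Krt14 is not shown. Krt5 was split by the replicate number without overlap, the adjacent Krt8 and Krt18 were not, and Epcam was among the most even markers. Each line gives the 250 bases before the RefSeq start site in build GRCm38.p6, 5′ to 3′ on the strand of the gene. Capitals mark CACCTG or its reverse complement, an E-box core bound by zinc finger repressors of epithelial genes such as the Snail and Zeb proteins.
Krt5, chr15:101712906-101713155, minus strand: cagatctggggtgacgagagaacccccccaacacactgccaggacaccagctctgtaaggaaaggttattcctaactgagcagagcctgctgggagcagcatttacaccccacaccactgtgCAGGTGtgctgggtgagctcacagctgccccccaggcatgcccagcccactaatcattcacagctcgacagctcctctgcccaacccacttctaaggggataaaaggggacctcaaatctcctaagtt
Krt8, chr15:102004343-102004592, minus strand: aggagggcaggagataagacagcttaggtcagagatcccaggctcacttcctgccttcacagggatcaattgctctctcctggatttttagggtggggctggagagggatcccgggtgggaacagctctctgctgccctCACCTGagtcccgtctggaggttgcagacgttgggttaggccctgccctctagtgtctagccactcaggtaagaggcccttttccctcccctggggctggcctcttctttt
Krt18, chr15:102027966-102028215, plus strand: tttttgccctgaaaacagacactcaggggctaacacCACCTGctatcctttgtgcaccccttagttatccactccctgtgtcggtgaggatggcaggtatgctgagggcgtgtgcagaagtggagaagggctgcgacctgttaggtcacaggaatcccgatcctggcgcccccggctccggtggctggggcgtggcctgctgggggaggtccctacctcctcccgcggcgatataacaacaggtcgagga
Epcam, chr17:87635729-87635978, plus strand: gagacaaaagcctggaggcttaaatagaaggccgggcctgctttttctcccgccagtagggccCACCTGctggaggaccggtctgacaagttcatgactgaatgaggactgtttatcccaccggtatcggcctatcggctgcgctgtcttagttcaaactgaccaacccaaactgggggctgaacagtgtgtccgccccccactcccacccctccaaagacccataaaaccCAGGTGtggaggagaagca
All 4 hold the motif, which was picked after the sequences were seen, from 5 motifs searched on both strands. Including the window listed for Krt14, which lies inside the span of that gene and holds no match, 4 of 5 windows of the markers have it, against 17.2% of all 32851 windows of this length. The match starts 128 bases before the start site in Krt5, 111 in Krt8 and 214 in Krt18, and at 187 and 19 in Epcam. The other motifs were TATAAA in 0 of the 5 windows (12.4% of all windows), ATAAAA in 2 (17.0%), GGGCGG in 1 (32.7%) and GCCNNNGGC in 1 (13.7%). A match of letters is a description of the sequence and not a binding site.

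Trp63 had 4 probe sets in the filter, and none separated the groups. The brightest, 1418158_at, had 371, 368, 436 and 434 on Dicer mutant arrays 1, 3, 4 and 5, against 384, 384, 419 and 609 on wild type arrays 1, 3, 4 and 5. Wild type 5 alone stood high. The log2 fold change of -0.14 (SE 0.15, 95% interval -0.48 to 0.21, adjusted p = 0.841) turned to 0.019 without that array. The 3 dimmer sets had log2 fold changes of -0.013, 0.019 and 0.052. Trp63 is also a gene of the apical ridge, whose signals keep the mesenchyme growing. Of 12 ridge genes fixed as a list, 9 passed the filter and 0 were called in either comparison. Of all tested probe sets, 1.68% were called in the 8 arrays and 0% in the 10. Bmp2, a growth factor made in ridge and mesenchyme, had a log2 fold change of -0.39 in the 8 arrays (adjusted p = 0.148). With the replicate block, a fit that called 5.41% of all tested probe sets, its adjusted p was 0.0348. The homeobox gene Dlx5 had -0.25 and the fibroblast growth factor gene Fgf9 -0.33 (adjusted p = 0.577 and 0.595). Without single arrays Dlx5 ran from -0.38 to -0.18 and Fgf9 from -0.43 to -0.14, the last without wild type 5, which had the highest Fgf9 signal of all arrays (433).

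The adhesion genes Epcam and Perp, by their brightest probe sets, were the most even of the 10 markers, while Cdh1 varied more. Epcam, a cell adhesion molecule of epithelia, had 613, 571, 590 and 602 on Dicer mutant arrays 1, 3, 4 and 5, against 610, 597, 552 and 617 on wild type arrays 1, 3, 4 and 5 (1416579_a_at). Its log2 fold change was 0.00093 in the 8 arrays (SE 0.072, 95% interval -0.16 to 0.16) and -0.064 in the 10 (95% interval -0.24 to 0.11). Its spread (SD of log2 signals) over the 10 arrays was low, at the 20.1st percentile of all tested probe sets, and the second Epcam set, 1447899_x_at, was at the 3.76th. Perp, a desmosomal membrane protein and target of p63, had 487, 487, 547 and 504 on Dicer mutant arrays 1, 3, 4 and 5, against 526, 500, 524 and 482 on wild type arrays 1, 3, 4 and 5. Its log2 fold change was -0.0061 (95% interval -0.17 to 0.16). Cdh1, which encodes E-cadherin, had 470, 566, 585 and 642 on Dicer mutant arrays 1, 3, 4 and 5, against 485, 458, 564 and 657 on wild type arrays 1, 3, 4 and 5. Its log2 fold change was 0.070 (SE 0.14, 95% interval -0.24 to 0.38). The spread of Cdh1 over the 10 arrays was at the 67.1st percentile of all tested probe sets.

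**Figure D4:**
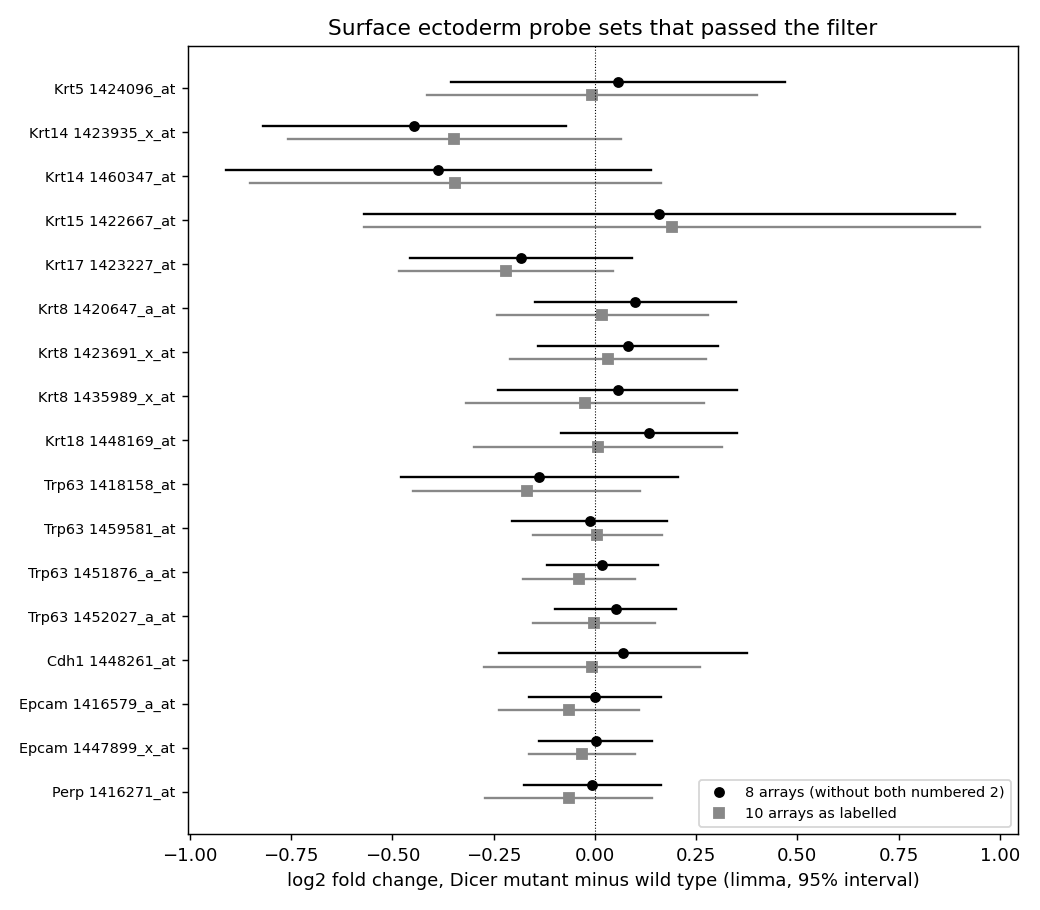
Log2 fold change (Dicer mutant minus wild type) and limma's 95% interval for the 17 probe sets that passed the filter, in the 8 arrays (black circles) and in the 10 arrays as labelled (grey squares). The interval of 1423935_x_at of Krt14 in the 8 arrays, -0.82 to -0.072, is the only one that does not hold 0, and it is not corrected for the number of probe sets tested.

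On the arrays numbered 2, which were left out of the 8, 8 of the 10 markers were lower in the array labelled Dicer mutant than in the array labelled wild type, the exceptions being Krt14 and Krt15. Of all tested probe sets 61.3% were lower there. The array labelled wild type 2 had the highest signal of the 10 arrays for 4 markers, among them Krt5 (985) and Perp (663).

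A wider list of surface ectoderm and epithelial genes was also without calls. Of 64 genes (desmosome, tight junction and basement membrane components, Grhl, Ovol and Tfap2 transcription factors, and ectodermal Wnt ligands), 59 were on the array and 40 passed the filter. None was called in either comparison, where 1.68% (8 arrays) and 0% (10 arrays) of all tested probe sets were. In each comparison 1 of 40 had an unadjusted p below 0.05, against 12.7% of all in the 8 arrays and 2.81% in the 10. The median log2 fold change in the 8 arrays was 0.0053, with values from -0.21 to 0.34, and 17 genes stood below 0 and 23 above. The smallest p-values belonged to Frem2, a basement membrane protein of the ectoderm (-0.21, adjusted p = 0.392), the desmosome protein gene Dsp (-0.20, adjusted p = 0.568) and the integrin gene Itga6 (0.18, adjusted p = 0.646). On arrays 4 and 5 all signals were below those on 1 to 3 for 6 of the 40 genes and above them for 1, where 11.7% and 8.34% of all tested probe sets show these orders.

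Among 12 genes of the stratified and cornified epidermis, 5 passed the filter. In the 8 arrays 1 was called, Krt10, the type I keratin of suprabasal cells, where 1.68% of all tested probe sets were. Krt10 (1452166_a_at) had 207, 223, 203 and 219 on Dicer mutant arrays 1, 3, 4 and 5, against 316, 369, 311 and 289 on wild type arrays 1, 3, 4 and 5. The groups did not overlap, which held for 9.09% of all tested probe sets. Krt10 fell by 0.59 on the log2 scale (SE 0.086, n = 4 per group, limma adjusted p = 0.0145), with geometric means of 213 and 320. The array labelled Dicer mutant 2 had 302 and the array labelled wild type 2 had 224, so that each lay nearer the other group. In the 10 arrays the log2 fold change was -0.38 (adjusted p = 1.00). The call was lost without wild type 1, Dicer mutant 1 or Dicer mutant 4 (adjusted p of 0.0519, 0.0514 and 0.0589), at values of -0.59, -0.57 and -0.57. Lor, the cornified envelope protein loricrin, stood the other way at 0.34 (adjusted p = 0.381), and it was named after its value was seen.

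Markers of the other cell types in the limb bud were counted beside these values. In the 8 arrays 0 of 19 limb mesenchyme genes, 0 of 7 white blood cell genes, 0 of 10 endothelial genes, 0 of 6 red cell genes and 0 of 10 skeletal muscle genes were called, where 1.68% of all tested probe sets were. With the replicate block, the fit in which Krt14 was called, 3 of the 19 mesenchyme genes (2 higher, 1 lower) and 2 of the 7 white blood cell genes (both higher) were called, where 5.41% of all were. Of 4 nerve and Schwann cell genes 1 was called, Gap43, a growth cone protein (-0.34, adjusted p = 0.0466), which lost its call without 7 of the 8 arrays in turn, at log2 fold changes that stayed between -0.38 and -0.31. It was also called with the block (adjusted p = 0.0422). The median log2 fold changes of these lists were -0.026, 0.16, -0.069, 0.058, -0.026 and -0.17. Signals were also summed over all listed genes on the array, including those under the filter. For 12 white blood cell genes the sum was 2517 to 2924 on Dicer mutant and 2285 to 2572 on wild type arrays of the 8. The arrays labelled Dicer mutant 2 and wild type 2 had 2351 and 3382. For 10 nerve genes the sum was 1652 to 1768 against 1729 to 2018 in the 8, and 2111 and 1887 on those numbered 2. The group ranges of the 8 overlapped for both lists, and also for mesenchyme, endothelial, red cell and muscle genes. Among mesenchyme genes the smallest p-values belonged to the homeobox gene Meox2 (-0.37), the hindlimb T-box gene Tbx4 (0.58) and the zinc finger gene Snai2 (-0.29), with adjusted p of 0.126, 0.157 and 0.223. With the block Tbx4 was called as higher (0.00705), Snai2 as lower (0.0420) and Meox2 was not called (0.0505), and the third call was Pdgfra, a growth factor receptor, at 0.20 (0.0480), named after its value was seen. Among white blood cell genes they belonged to Ctss, a lysosomal protease, Tyrobp, a signalling adaptor, and Cx3cr1, a chemokine receptor, at 0.43, 0.49 and 0.19 (adjusted p of 0.0773, 0.223 and 0.277). With the block Ctss (0.0197) and Tyrobp (0.0164) were called as higher and Cx3cr1 was not (0.146). No listed gene had a signal of 0 on any array. The part of these cell types in the values of Krt14 and Krt10 was not tested.

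Genes with a pattern most like that of the markers were looked up by Pearson's r over the 10 arrays with the mean centred log2 signal of the 10 marker genes. The 10 highest of 11591 other genes were Frg1, Tsc1, Nkd2, Phlda3, Capg, Ctsz, Dhrs13, Coro1a, Imp4 and Man2c1, with r from 0.91 to 0.96 (a description over arrays that share these patterns, with no test), and the 5 lowest were Utf1, Efcab2, Gpank1, Adam22 and Sc5d, with r from -0.95 to -0.93. None of the 10 is in the wider ectoderm list. All 10 had their highest signal on the array labelled wild type 2, and 8 of them had lower signals on arrays 4 and 5 than on all of 1 to 3. Each marker is itself part of the mean of the 10, which raises its r with that mean. Among the markers r was 0.90 for Krt5, 0.91 for Krt17 and 0.72 for Krt14, but -0.37 for Krt18 and -0.20 for Cdh1. The 10 genes thus did not vary as 1 group.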

How the data were processed

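Biotinylated cRNA from cut limbs was read on Affymetrix arrays, per the labels' protocols. The deposited series table holds the authors' linear intensity values, already on a common scale (array medians of 145.9 to 152.8). The submitters' processing notes name GCOS version 1.3. How probes were summarized and to what target arrays were scaled is not stated there, and no detection calls were used.

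Log2 was taken after raising values below 1 to 1. After 64 control sets were removed, the 22519 probe sets with a mean log2 signal not under the median were tested in R 4.3.3 with limma 3.58.1 (lmFit, then eBayes with trend), Benjamini-Hochberg adjusted at 0.05 over all of them. A gene was represented by its brightest probe set. Names come from the platform annotation, and upstream sequences from RefSeq (GRCm38.p6), which listed windows for 5 of the 10 markers. The script was tested on simulated data.

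The markers, gene lists, tests and the comparison of 8 arrays were chosen with earlier results of these data known. The text names all probe sets of the 10 markers and, of the other lists counted, the called members or up to 3 with the smallest p. Endothelial, red cell and muscle genes are given as counts and medians only, an exception to that rule. The likeness rule names 10 genes at the top and 5 at the bottom. Alternatives were quantile normalization, an offset of 64, no filter or one at the 70th percentile, a replicate block, averaging a gene's probe sets, pairs of numbers, and leaving out each array in turn.

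Both groups carry the numbers 1 to 5. In the 8 arrays, arrays of one number deviated together from the means of their groups (r = 0.55, 0.55, 0.71 and 0.32 for numbers 1, 3, 4 and 5), but in the 10 arrays not for number 2 (r = -0.18). The replicate block takes the numbers to pair arrays, an assumption from the data of the 8 and not on any label. As an alternative it was also fitted to all 10 arrays. Arrays numbered 1 to 3 stood apart from 4 and 5 in both groups, which alone can make arrays of one number deviate together. Arrays of unlike numbers were not compared, so these r cannot show that equal numbers are pairs.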

Additional observations from a re-analysis of the deposited data

Results flagged for a closer look

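Of 58 groups of 4 or 5 arrays examined over the marker probe sets, 1 held an array far from the others by Dixon's criterion, where chance gives about 1 in 20. Perp (1416271_at) had a signal of 663 on the array labelled wild type 2, against 482 to 526 on the other wild type arrays. Dicer1 went against the label of the same array, and the cause was not tested.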

How the results depend on the processing

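No marker was called in the 10 arrays under any alternative run. In the 8 arrays only 2 alternatives called any, 2 probe sets each, both of Krt14. They were the replicate block and the fit without block of the arrays numbered 1 and 3 alone. Probe sets called in the 8 arrays (378) became 1219 with the replicate block, 812 in pairs 1 and 3, 0 in pairs 4 and 5, and 93 to 745 without single arrays. The block changed no other call among the 10 markers. The median of the 10 markers lay between -0.081 and 0.0022 in the 10 arrays and between -0.0060 and 0.027 in the 8 without single arrays. Krt14 kept its direction throughout, from -0.50 to -0.24 without single arrays of the 10, and from -0.54 to -0.35 (adjusted p of 0.134 to 0.569) of the 8. Krt14 over Krt5 lay between -0.54 and -0.45 in the 8.

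Small differences changed sign. With quantile normalization Cdh1 and Krt5 turned to 0.022 and 0.018 in the 10 arrays and Perp to 0.0061 in the 8. Epcam was -0.028 in pairs 1 and 3, and in pairs 4 and 5 Krt8 was -0.0011 and Perp 0.062. Without single arrays of the 10, values ran from -0.075 to 0.056 for Cdh1, -0.074 to 0.37 for Krt15, -0.077 to 0.15 for Krt18, -0.11 to 0.11 for Krt5, -0.051 to 0.11 for Krt8 and -0.10 to 0.013 for Perp. Of the 8, they ran from -0.0057 to 0.17 for Cdh1, -0.034 to 0.020 for Epcam, -0.13 to 0.42 for Krt15, -0.038 to 0.17 for Krt5, -0.044 to 0.012 for Perp and -0.20 to 0.019 for Trp63. None of these passed the test, and the cause was not tested. The distance of dim probe sets from background is unknown, so their changes may be understated.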
